A study of Mus musculus with 16 samples.

Results

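Genes of bile acid synthesis and transport were followed in liver RNA of 16 mice on 4 diets. The set holds 10 genes chosen by symbol for their known role, at a point when earlier results of these data were known. It covers the synthesis enzymes Cyp7a1, Cyp8b1, Cyp27a1 and Cyp7b1, the nuclear receptors Nr1h4 and Nr0b2, and the transporters Abcb11, Slc10a1, Slco1a1 and Slco1b2. They are 10 of the 54752 genes in the deposited count table. All 10 passed the filter on low counts, as did 17833 genes in all. Every animal was male, an F1 hybrid of the strain C57BL6J/FVBN, 11 weeks old and of the genotype Ercc1Δ/−. Ercc1 encodes a subunit of a DNA repair endonuclease, and mice with a truncated and a null allele of it age early. Animals of another genotype were not analysed here, so all values describe repair-deficient livers. Control animals stayed on the synthetic AIN93G diet, and the other groups changed diet at 8 weeks of age. The high-protein diet held 194% protein and 70% carbohydrate, the low-protein diet 70% protein and 112% carbohydrate, and the low-fat diet 70% fat and 112% carbohydrate, with percentages as the labels give them. Food was offered ad libitum, the diets were matched for calories, and each diet had 4 animals (replicates 1 to 4). Each test diet alters a pair of nutrients at once, and their effects cannot be told apart. How the animals shared litters or cages is not stated in the labels. The main p-values between diets reflect the spread between animals within diets, estimated over all 4 diets together.

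Hepatocytes make bile acids from cholesterol. The classic route starts with CYP7A1, its rate-limiting step, the alternative route starts with CYP27A1 and continues through CYP7B1, and CYP8B1 directs the product towards cholic acid. Bile acids activate the nuclear receptor FXR, encoded by Nr1h4, which induces the corepressor SHP, encoded by Nr0b2. SHP dampens Cyp7a1 transcription, and FXR induces the canalicular bile salt export pump Abcb11. Bile acids return from portal blood through the sinusoidal carriers Slc10a1 (NTCP), Slco1a1 and Slco1b2 (organic anion transporting polypeptides).

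The RefSeq promoter table (GRCm38.p6) held a window for 8 of the 10 genes, and the 250 bases before the transcription start were searched on both strands for 3 motifs whose letters were chosen after the windows had been seen. An inverted repeat with 1 base between its arms (AGGNCA, any base, then TGACCT), the kind of element FXR binds, was found in Abcb11 and Slco1b2 and in 11 of all 32851 windows of this length (0.0335%). CAAGGNCA, the form bound by the orphan receptor NR5A2 (LRH-1), was found in Cyp8b1 and Nr0b2 and in 5.53% of windows. CACGTG, the E-box of the clock factors, was found in Nr0b2 and in 6.02% of windows. The 4 windows with a match are printed 5′ to 3′ because they cover a synthesis enzyme, the corepressor, the export pump and an uptake carrier of the same circuit. Capitals mark the matches, and in Nr0b2 the E-box and the CAAGGNCA match overlap. A match describes letters in the window and does not show binding.
Nr0b2, chr4:133553126-133553375, + strand: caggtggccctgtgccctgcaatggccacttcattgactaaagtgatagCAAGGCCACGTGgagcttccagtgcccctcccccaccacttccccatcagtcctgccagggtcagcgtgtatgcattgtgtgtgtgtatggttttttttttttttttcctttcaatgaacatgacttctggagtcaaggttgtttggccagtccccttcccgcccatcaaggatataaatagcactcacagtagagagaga
Cyp8b1, chr9:121916306-121916555, - strand: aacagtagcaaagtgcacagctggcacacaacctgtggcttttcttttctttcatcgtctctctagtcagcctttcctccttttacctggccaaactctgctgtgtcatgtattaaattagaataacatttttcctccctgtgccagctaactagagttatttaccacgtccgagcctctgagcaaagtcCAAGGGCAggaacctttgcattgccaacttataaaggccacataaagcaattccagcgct
Abcb11, chr2:69342617-69342866, - strand: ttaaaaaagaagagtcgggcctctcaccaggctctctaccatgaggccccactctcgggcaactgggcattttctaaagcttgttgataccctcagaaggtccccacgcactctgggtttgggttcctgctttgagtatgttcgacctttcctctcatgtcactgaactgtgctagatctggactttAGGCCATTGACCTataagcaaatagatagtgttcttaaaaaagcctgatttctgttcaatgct
Slco1b2, chr6:141629268-141629517, + strand: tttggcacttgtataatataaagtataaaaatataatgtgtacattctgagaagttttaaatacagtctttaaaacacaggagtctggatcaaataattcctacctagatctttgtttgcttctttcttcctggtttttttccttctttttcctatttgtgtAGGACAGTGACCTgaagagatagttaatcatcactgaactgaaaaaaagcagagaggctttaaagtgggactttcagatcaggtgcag
Counted back from the start, the matches lie at -201 to -190 in Nr0b2, -60 to -53 in Cyp8b1, -63 to -51 in Abcb11 and -88 to -76 in Slco1b2.

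Library totals ran from 35243594 to 46899907 counts, except low fat 2 with 112789127. Levels are CPM, counts scaled to a library total of 1000000, with totals adjusted by the trimmed mean of M-values (TMM), a factor that ran from 0.778 in control 4 to 1.16 in control 3. Marker sums are CPM of unadjusted totals. The 7 hepatocyte markers measured (Alb and Apoa1 the highest) summed to 80776 to 113035 CPM and none was at 0, so the labelled tissue was present in every library. Control 4 stood farthest from the other libraries of its diet, with a standard deviation of 1.29 log2 units across genes (0.433 to 1.01 in the other 15). The 20 kidney markers (Kap and Slc34a1 among them) summed to 1.56 to 1618 CPM with high protein, 96.2 to 5408 in control, 1058 to 3246 with low fat and 694 to 1288 with low protein, so RNA of kidney genes varied between libraries and was highest in control 3. Markers of cholangiocytes summed to 32.5 to 223 CPM, of Kupffer cells to 150 to 391, of endothelium to 98.5 to 176 and of stellate cells to 260 to 342 CPM. Clock genes also differed between libraries of a diet, and the hour of tissue collection is not stated in the labels. Results that rest on control 4 are given with and without it below.

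Cyp7a1 and Nr0b2 varied most among the 10 genes and in opposite directions, while Nr1h4 and Slc10a1 hardly varied. Per kilobase of exon the order of mean levels over 16 libraries was Slco1b2 (240 ± 51.3 CPM per kb, SD), Slc10a1 (234 ± 27.2), Cyp27a1 (193 ± 103), Cyp8b1 (136 ± 55.7), Slco1a1 (123 ± 41.5), Cyp7b1 (70.3 ± 37.8), Abcb11 (69.2 ± 15.9), Nr1h4 (49.5 ± 7.09), Cyp7a1 (40.9 ± 36.0) and Nr0b2 (34.6 ± 25.1). The ranges of mean ± SD of neighbours in that order overlapped. The highest library exceeded the lowest 22.4-fold for Cyp7a1, 17.8-fold for Nr0b2, 7.72-fold for Slco1a1 and 6.47-fold for Cyp7b1. The ratio was 4.66 for Cyp8b1, 4.03 for Cyp27a1, 3.05 for Slco1b2, 2.28 for Abcb11, 2.01 for Nr1h4 and 1.58 for Slc10a1. The lowest count of any of these genes in any library was 256 (Nr0b2). In bulk tissue, fewer cells that express a gene and less RNA per cell cannot be told apart.

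**Figure D1:**
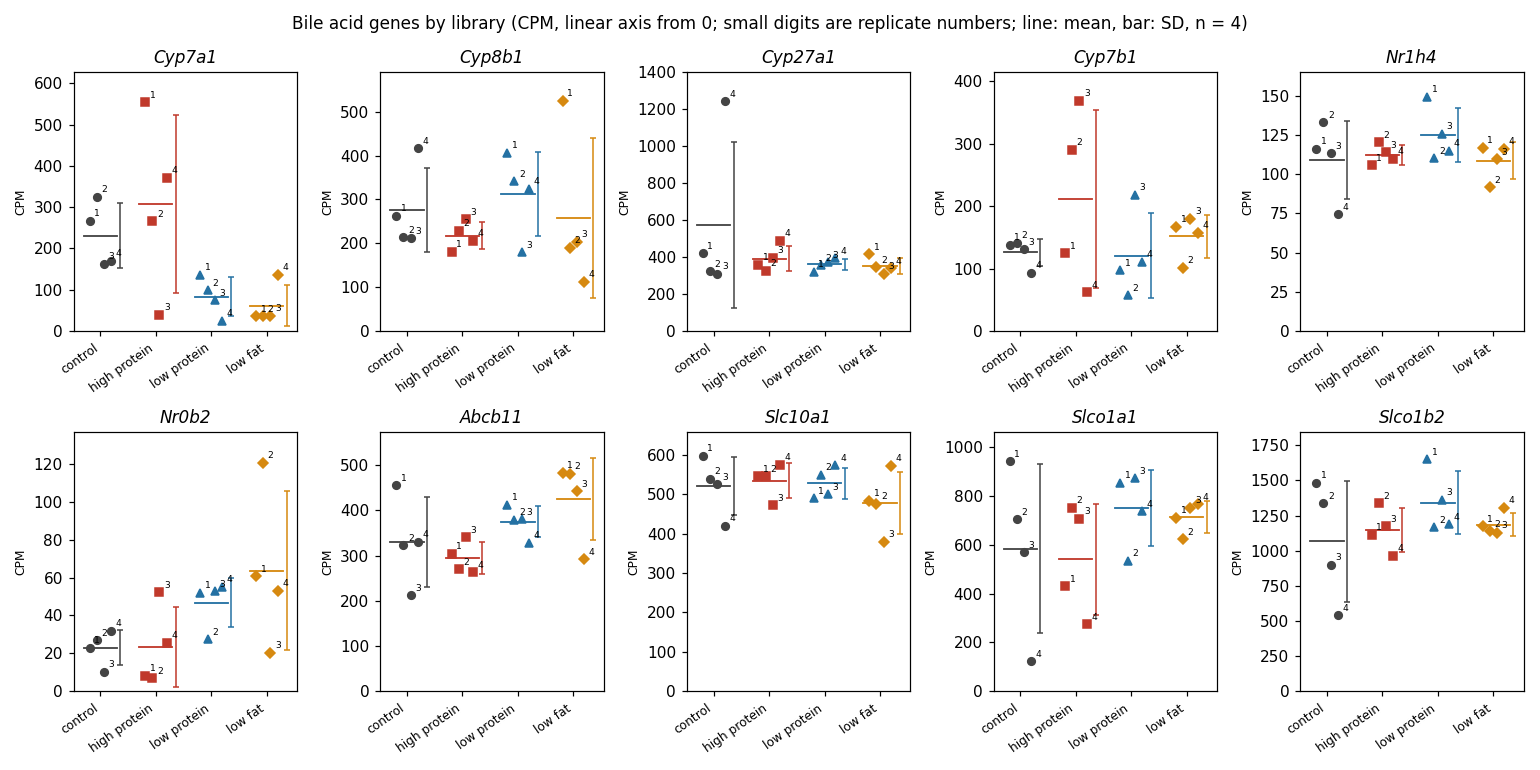
Level of each bile acid gene (CPM, linear axis from 0) in 4 libraries of each diet, with replicate numbers beside the points, a line at the mean and a bar for the SD. Cyp7a1 in all 8 low-protein and low-fat libraries (24.7 to 136 CPM) lies below the 4 control libraries (162 to 325), and Cyp27a1 in control 4 stands at 1243.

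With edgeR's quasi-likelihood test and Benjamini-Hochberg adjustment over 17833 genes, none of the 10 genes passed 0.05 in any of the 6 comparisons of diets or in the joint test of the 4 diets, which gave 1 of them, Cyp7a1, an unadjusted p under 0.05 (6.59% of all genes). No gene of the table passed either (0%). At an unadjusted p under 0.05, counts of the 10 genes were 0 for high protein against control (6.22% of all genes tested) and 1 lower for low protein against control (4.73% of all genes were lower). Low fat against control gave 1 higher (3.09%) and 1 lower (6.13%). High protein against low protein gave 1 higher (2.34%), high protein against low fat gave 1 higher (4.67%) and 2 lower (4.41%), and low fat against low protein gave none (2.38%). Libraries of the diets did not overlap for 1 gene, lower, in low protein against control (0.869% of all genes) and for 1 gene, lower, in low fat against control (1.32%). That gene was Cyp7a1 in both, and both comparisons use the same 4 control libraries. No gene of the set was without overlap in high protein against control (1.96% of all genes), high protein against low protein (6.61%), high protein against low fat (8.22%) or low fat against low protein (4.49%). DESeq2 called 1 of the 10, Cyp7a1, in high protein against low fat (76 genes in all), and limma-voom with sample quality weights called none of them.

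**Figure D2:**
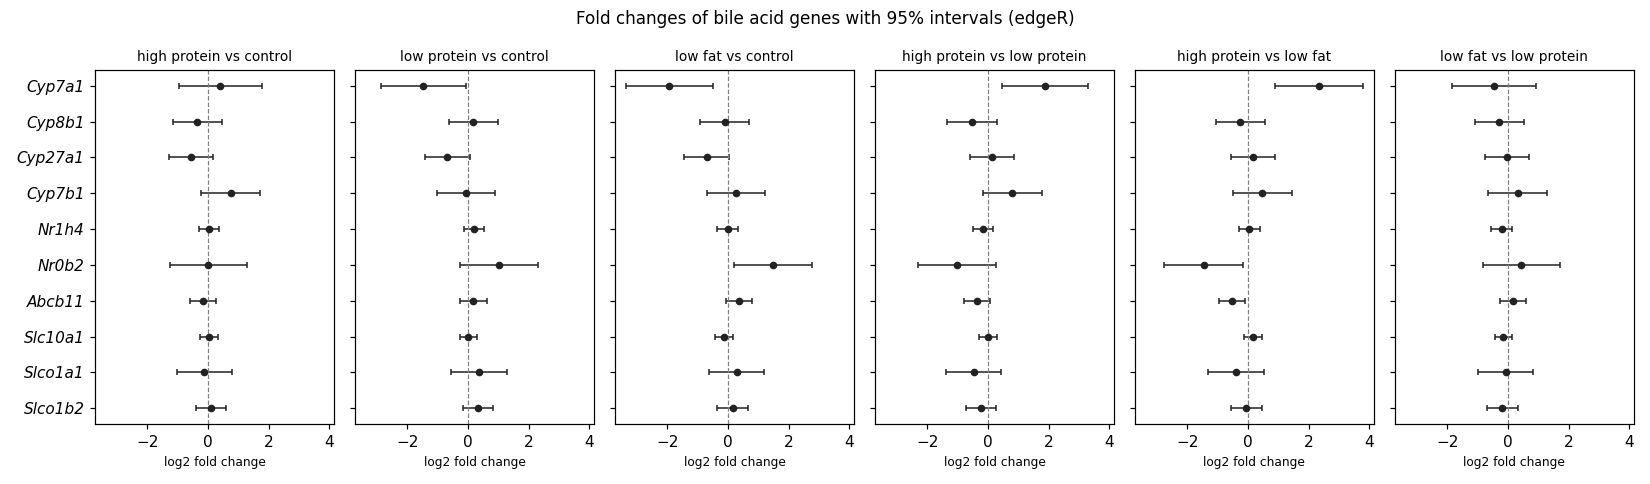
Log2 fold changes of the 10 genes in the 6 comparisons, first diet minus second, with 95% intervals from edgeR's fit of all 16 libraries. The intervals of Cyp7a1 lie below 0 for low protein and low fat against control and above 0 for high protein against low protein and low fat, before any adjustment for the number of genes tested.

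Cyp7a1 (chr4:6265612-6275633, minus strand), which encodes the rate-limiting enzyme of the classic route, measured lower in all libraries of both carbohydrate-rich diets than in all 4 controls, and no difference passed after adjustment. In control replicates 1 to 4 it measured 266, 325, 162 and 170 CPM, and with high protein 554, 266, 39.4 and 371 CPM. With low protein it measured 136, 98.9, 74.8 and 24.7 CPM, and with low fat 36.0, 35.3, 36.2 and 136 CPM. Of the 4 low-fat libraries 3 were nearly equal, and high protein held both the highest value of all and, in replicate 3, one at the low-fat level. Group means were 231 ± 78.5 CPM in control, 308 ± 215 with high protein, 60.8 ± 50.0 with low fat and 83.5 ± 46.5 with low protein (SD, n = 4). In that order by mean, high protein and control overlapped, as did low protein and low fat.

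Against control, Cyp7a1 was 3.80-fold lower with low fat, a log2 difference of -1.93 (SE 0.67), which edgeR's quasi-likelihood test gave an unadjusted p of 0.0113 and a Benjamini-Hochberg adjusted p of 0.530. Without low fat 4 that log2 difference was -2.71. With low protein it was 2.77-fold lower (log2 difference -1.47, SE 0.66), with an unadjusted p of 0.0417 and an adjusted p of 0.682 in the same test. The unadjusted edgeR p was above 0.05 without control 1 or 2 or low protein 2, 3 or 4 (highest 0.102). High protein against control gave a log2 difference of 0.41 with a 95% interval of -0.96 to 1.79. This difference was -0.036 without high protein 1 and -0.40 with limma-voom, so its direction differed between settings. High protein exceeded low fat 5.06-fold (log2 difference 2.34, SE 0.68, edgeR adjusted p = 0.399, DESeq2 adjusted p = 0.0328) and low protein 3.68-fold (log2 difference 1.88, SE 0.67, edgeR adjusted p = 0.944). Without low fat 4 the log2 difference of high protein from low fat was 3.12, and without high protein 1 the unadjusted edgeR p against low protein was 0.0525. Low fat and low protein differed by -0.46 with an interval of -1.84 to 0.92 (-1.23 without low fat 4). The joint test over the 4 diets gave Cyp7a1 the smallest p of the 10 genes, 0.00806 unadjusted and 0.695 adjusted (edgeR).

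Clock, zonal and kidney genes also differed between these libraries. Dbp, a clock-controlled transcription factor, measured 9.05, 45.6, 19.5 and 107 CPM in low fat 1 to 4, so the low-fat library with the highest Cyp7a1 also had the highest Dbp. In low protein 1 to 4 it measured 79.3, 128.8, 163.9 and 170.1 CPM, the reverse of the order of Cyp7a1. With high protein Dbp measured 145.5, 161.8, 102.1 and 72.7 CPM, and in control 34.1, 214, 172 and 13.9 CPM, neither in the order of Cyp7a1. Arntl, the clock activator BMAL1, was 9.52, 0.953, 0.677 and 56.8 CPM in control and 0.744, 1.535, 3.95 and 1.565 with high protein. With low protein it was 7.69, 3.90, 3.39 and 2.55 CPM, and with low fat 23.57, 13.21, 18.95 and 2.25. Within its diet Arntl was lowest in low fat 4 and highest in high protein 3, the reverse of Cyp7a1. In low protein it ran in the order of Cyp7a1. Of the 12 clock genes listed, none passed after adjustment in any comparison (edgeR). At an unadjusted p under 0.05, 1 was higher and 5 lower in low fat against control (3.09% and 6.13% of all genes), and 0 and 2 in low protein against control (2.35% and 4.73%). High protein against low fat gave 5 higher and 3 lower (4.67% and 4.41%), and high protein against low protein 0 and 1 (2.34% and 2.83%). High protein against control gave 0 and 1 (2.48% and 3.74%), and low fat against low protein 1 and 3 (1.01% and 1.37%).

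Summed markers of pericentral hepatocytes, the zone where Cyp7a1 is known to be highest, were 8984 to 10354 CPM with high protein, 7303 to 9339 in control, 6456 to 7369 with low fat and 7499 to 9526 with low protein. Low protein and low fat both overlapped with control in this sum. Periportal markers, from the opposite zone, summed to 9889 to 14101 CPM with high protein, 6879 to 24586 in control, 6377 to 8203 with low fat and 5673 to 7463 with low protein. Both zonal sums were therefore higher in all high-protein than in all low-fat libraries, though single markers went both ways. Of 10 pericentral markers, 7 were higher and 3 lower in high protein than in low fat (median log2 difference 0.11). Of 10 periportal markers, 6 were higher and 4 lower (median 0.46). High protein 1, with the highest Cyp7a1, had the lowest kidney marker sum (1.56 CPM). With the kidney marker level as a covariate in edgeR, the Cyp7a1 difference from control was -1.64 for low fat (unadjusted p = 0.0312) and -1.29 for low protein (unadjusted p = 0.0681). High protein gave 1.88 against low fat (unadjusted p = 0.0196) and 1.54 against low protein (unadjusted p = 0.0400). The lowest adjusted p of Cyp7a1 in that edgeR fit was 0.701. The part of zonal and clock genes in the Cyp7a1 result was not tested.

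Cyp8b1 (chr9:121914356-121916305, minus strand), the sterol hydroxylase needed for cholic acid, showed no ordering by diet. It measured 262, 213, 211 and 416 CPM in control and 181, 228, 255 and 206 with high protein. With low protein it measured 406, 341, 179 and 324 CPM, and with low fat 524, 190, 203 and 113. All 4 diets overlapped, and within low fat the highest library was several times the lowest. The largest difference, low protein above high protein by 1.44-fold, had an interval of -1.33 to 0.29 for high minus low protein on the log2 scale. Since Cyp7a1 varied more, the ratio of Cyp8b1 to Cyp7a1 per kilobase followed Cyp7a1. It was 2.11, 1.40, 2.79 and 5.24 in control, 0.698, 1.83, 13.8 and 1.19 with high protein, 6.41, 7.38, 5.14 and 28.0 with low protein, and 31.2, 11.5, 12.0 and 1.78 with low fat. The ranges of control and of both carbohydrate-rich diets overlapped for this ratio.

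Cyp27a1 (chr1:74713574-74737892, plus strand), the mitochondrial sterol hydroxylase that opens the alternative route, was even across diets apart from control 4. It measured 420, 323, 308 and 1243 CPM in control, 359, 325, 397 and 488 with high protein, 322, 355, 371 and 393 with low protein, and 415, 345, 310.5 and 339 with low fat. Differences from control were -0.55, -0.67 and -0.70 on the log2 scale for high protein, low protein and low fat. Without control 4 they were 0.15, 0.022 and -0.021, so 1 library set these values.

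Cyp7b1 (chr3:18071950-18243338, minus strand), the oxysterol hydroxylase of the alternative route, spread most on the high-protein diet. It measured 138, 141, 131 and 93.1 CPM in control, 124, 290, 369 and 62.3 with high protein, 97.3, 57.0, 218 and 111 with low protein, and 167, 102, 180 and 157 with low fat. High protein held the highest and nearly the lowest value, and all diets overlapped. The log2 difference of high protein from control was 0.75, with a 95% interval of -0.22 to 1.72. Cyp7b1 is known to be higher in male liver, and so is Hsd3b5, a steroid dehydrogenase that measured 17.8, 155, 105 and 0.648 CPM in high protein 1 to 4 and 1.14 CPM in control 4. High protein 2 and 3 were thus high, and high protein 4 and control 4 low, for both genes. Their link was not tested.

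Nr1h4 (chr10:89454234-89533585, minus strand), the gene of the bile acid receptor FXR, was nearly constant. It measured 116, 133, 113 and 74.5 CPM in control, 106, 120, 114 and 110 with high protein, 149, 110, 126 and 115 with low protein, and 117, 91.8, 110 and 116 with low fat. The diets overlapped, with low protein 1 the highest library and control 4 the lowest. The 6 log2 differences lay between -0.20 and 0.20, and the interval of the widest, low fat minus low protein, was -0.54 to 0.13.

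Nr0b2 (chr4:133553376-133556536, plus strand), the corepressor SHP, had its highest group means on the diets where Cyp7a1 was lowest. It measured 22.8, 26.8, 10.3 and 31.8 CPM in control and 8.03, 6.78, 52.2 and 25.6 with high protein. With low protein it measured 51.9, 27.4, 52.7 and 55.1 CPM, and with low fat 60.6, 121, 20.3 and 53.2. Of the 8 low-protein and low-fat libraries 6 were above all 4 controls, while low protein 2 and low fat 3 overlapped with control. High protein split into 2 libraries below every control and 1, replicate 3, at the low-protein level. Low fat exceeded control 2.78-fold (log2 difference 1.48, SE 0.61), with an unadjusted p of 0.0274 and an adjusted p of 0.530 in edgeR's quasi-likelihood test. It exceeded high protein 2.75-fold (log2 difference of high protein minus low fat -1.46, SE 0.61, edgeR adjusted p = 0.531), and the difference was -2.22 without high protein 3. The unadjusted edgeR p of low fat against control was above 0.05 without control 1, control 3 or low fat 2 (highest 0.121), and that of high protein against low fat without high protein 1, high protein 2 or low fat 2 (highest 0.133). Low protein exceeded control by 1.03 (SE 0.60, edgeR adjusted p = 0.687), and high protein and control differed by 0.016 with an interval of -1.25 to 1.28. Without high protein 3 that last difference was -0.77.

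Across the 16 libraries Cyp7a1 and Nr0b2 were inversely related. On log2 CPM Pearson's r was -0.666 (permutation p = 0.00516, adjusted p = 0.0413 over 8 pairs of genes) and Spearman's rho was -0.715 (permutation p = 0.00244, adjusted p = 0.0195). High protein 3 illustrates the relation inside a diet, with low Cyp7a1 (39.4 CPM) and high Nr0b2 (52.2 CPM), whereas low fat 3 had both low (36.2 and 20.3 CPM). Computed on deviations from the diet means, r was -0.414 (permutation p = 0.109, adjusted p = 0.217) and rho was -0.297 (permutation adjusted p = 0.524), so the call does not hold within diets. Without the 2 libraries farthest from the median of Cyp7a1, r was -0.569 (permutation p = 0.0328, adjusted p = 0.176) and rho was -0.604 (permutation p = 0.0250, adjusted p = 0.153), so with 14 libraries the coefficients stayed of similar size and the adjusted call was lost. Without control 4, r was -0.672 (permutation adjusted p = 0.0502) and rho was -0.718 (permutation adjusted p = 0.0267), so the call was kept by rho.

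**Figure D3:**
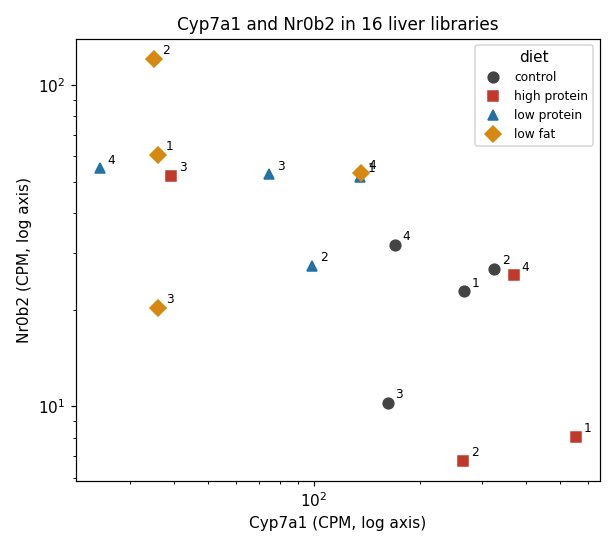
Nr0b2 against Cyp7a1 (CPM, both axes logarithmic) in 16 libraries, marked by diet and replicate number. Libraries run from high Cyp7a1 and low Nr0b2 (high protein 1, 554 and 8.03 CPM) to low Cyp7a1 and high Nr0b2 (low fat 2, 35.3 and 121 CPM), with low fat 3 off that line.

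Of the other 7 pairs examined, none passed after adjustment by Pearson's r. Nr0b2 and Abcb11, both known FXR targets, had r = 0.583 (permutation p = 0.0179, adjusted p = 0.0715) and rho = 0.497 (adjusted p = 0.135). Cyp7b1 and Slco1a1, both higher in male liver, had r = 0.476 (permutation p = 0.0669, adjusted p = 0.178) and rho = 0.553 (adjusted p = 0.117). On deviations from the diet means this pair had r = 0.620 (adjusted p = 0.0922) and rho = 0.744 (permutation p = 0.00159, adjusted p = 0.0127). Without control 4, and without taking deviations, the pair had r = 0.545 (permutation adjusted p = 0.103) and rho = 0.471 (permutation adjusted p = 0.207). The pair was not tested on deviations without control 4. Nr1h4 had r = 0.0015 with Abcb11 and -0.033 with Nr0b2, both targets of its product (permutation adjusted p = 0.995 for both). Cyp7a1 had r = -0.256 with Cyp8b1 and -0.220 with Cyp7b1, and Slc10a1 had r = 0.386 with Slco1b2 (permutation adjusted p from 0.273 to 0.550).

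Abcb11 (chr2:69238282-69342616, minus strand), the canalicular bile salt export pump, was highest on the low-fat diet. It measured 455, 323, 212 and 330 CPM in control, 304, 270, 341 and 263 with high protein, 413, 379, 380 and 329 with low protein, and 483, 481, 442 and 291 with low fat. Low fat 1, 2 and 3 lay above every high-protein library, and low fat 4, which also had the highest Cyp7a1 of its diet, lay among them. Low fat exceeded high protein 1.44-fold (log2 difference of high protein minus low fat -0.53, SE 0.20), with an unadjusted p of 0.0202 and an adjusted p of 0.506 in edgeR's test. The unadjusted edgeR p was above 0.05 without high protein 2, high protein 4, low fat 1 or low fat 2 (highest 0.0719). The difference of low fat from control was 0.36 with an interval of -0.069 to 0.80. Exons of 2 genes on the other strand overlap those of Abcb11, and they held 188 counts against 263976 of Abcb11. No other gene of the set shares exonic bases with another gene.

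Slc10a1 (chr12:80953183-80968705, minus strand), the sodium-dependent carrier NTCP, was the steadiest of the 10 genes. It measured 598, 539, 525 and 421 CPM in control, 546, 545, 473 and 575 with high protein, 490, 549, 501 and 574 with low protein, and 484, 476, 379 and 572 with low fat. All diets overlapped, and the 6 log2 differences lay between -0.14 and 0.16. Against control, the 95% intervals were -0.26 to 0.33 for high protein, -0.27 to 0.31 for low protein and -0.42 to 0.17 for low fat.

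Slco1a1 (chr6:141907282-141946962, minus strand), a male-biased organic anion carrier, differed between libraries more than between diets. It measured 942, 705, 569 and 122 CPM in control, 430, 752, 706 and 274 with high protein, 853, 534, 873 and 738 with low protein, and 712, 623, 751 and 767 with low fat. Control 4 and high protein 4 were the lowest libraries, as they were for Hsd3b5. The difference from control was 0.29 with low fat, 0.36 with low protein and -0.11 with high protein, and without control 4 it was -0.081, 0.0027 and -0.46. Slco1b2 (chr6:141629518-141686646, plus strand), the hepatocyte-specific carrier of the same family, also had its lowest value in control 4. It measured 1484, 1339, 901 and 541 CPM in control, 1112, 1337, 1173 and 962 with high protein, 1652, 1167, 1365 and 1187 with low protein, and 1173, 1138, 1127 and 1307 with low fat. All diets overlapped, and the widest difference, low protein minus control, was 0.33 with an interval of -0.17 to 0.84 (0.093 without control 4). The Slco1a genes are close copies of each other, and how reads they share were counted is not stated, so Slco1a1 is uncertain to that extent.

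Of 50 other bile acid genes in 7 roles, 49 could be tested, and none passed 0.05 after adjustment with edgeR (smallest adjusted p 0.429, high protein against low fat). At an unadjusted p under 0.05, 1 was higher and 2 lower in high protein against control (2.48% and 3.74% of all genes), and 3 higher and 5 lower in low protein against control (2.35% and 4.73%). Low fat against control gave 2 higher and 8 lower (3.09% and 6.13%), and high protein against low fat 5 higher and 1 lower (4.67% and 4.41%). High protein against low protein gave 1 and 1 (2.34% and 2.83%), and low fat against low protein 1 and 4 (1.01% and 1.37%). The median log2 difference of the 49 was -0.14 in low fat against control, beside -0.020 over all genes tested, and between -0.084 and 0.075 in the other comparisons. For the 10 main genes the median was 0.072 in low fat against control, 0.18 in low protein against control and 0.027 in high protein against control.

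**Figure D4:**
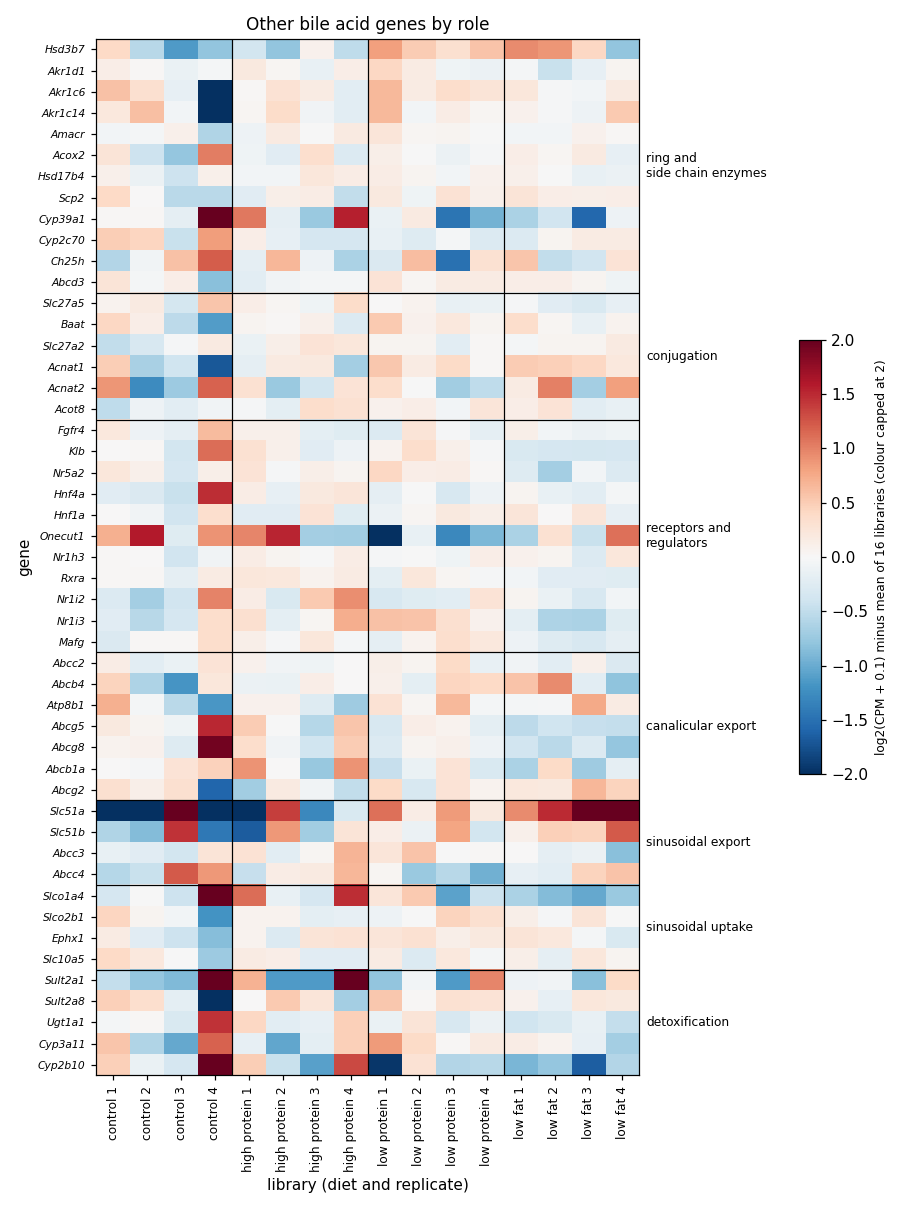
Log2(CPM + 0.1) of 49 further bile acid genes, grouped by role, minus the mean of each gene over 16 libraries (colour capped at 2 log2 units). The column of control 4 departs most, with Abcg5, Abcg8, Cyp39a1, Slco1a4, Ugt1a1 and Cyp2b10 high. In the same column Acnat1 (-1.69) and other genes are low, down to -2.73. Abcg5 is low in all 4 low-fat libraries (129 to 140 CPM).

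Among ring and side chain enzymes, Hsd3b7, which acts just after CYP7A1, had its highest mean on the low-protein diet. It measured 6.42, 3.28, 2.14 and 2.76 CPM in control and 3.72, 2.75, 5.14 and 3.37 with high protein, against 8.58, 6.92, 6.08 and 7.23 with low protein and 9.39, 9.03, 6.47 and 2.75 with low fat. Low-protein libraries lay above all high-protein ones, a 1.92-fold difference (edgeR unadjusted p = 0.0216, adjusted p = 0.944) of a kind seen in 3.47% of all genes, while control 1 overlapped with low protein. Cyp39a1, an oxysterol hydroxylase, was 306 CPM in control 4 and 24.4 to 28.0 in the other controls. Its log2 difference of low fat from control was -2.39, and -0.57 without control 4. Of the conjugation genes, Acnat1 measured 11.7 to 53.4 CPM in control and 44.1 to 53.8 with low fat, but is uncertain because Acnat2 is a close copy. Acot8, a peroxisomal thioesterase, measured 13.3 to 18.0 CPM in control and 18.1 to 22.3 with low protein, with no overlap (1.61% of all genes were higher in this way). The log2 difference was 0.32 (edgeR unadjusted p = 0.0524, adjusted p = 0.682).

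Among regulators, Nr5a2 and Nr1i3 were lowest on the low-fat diet. Nr5a2 encodes LRH-1, whose element was searched for above, and measured 66.0, 60.1, 44.7 and 60.9 CPM in control, 67.9, 55.6, 61.2 and 58.6 with high protein, 75.0, 61.6, 62.3 and 57.5 with low protein, and 47.3, 35.3, 54.5 and 46.8 with low fat. All low-fat libraries lay below the high-protein and low-protein ones, and control 3 overlapped with them. Without overlap, 4.23% of all genes were higher in high protein than in low fat and 2.14% lower in low fat than in low protein. Low fat was lower than low protein by 0.48 on the log2 scale (1.39-fold, edgeR unadjusted p = 0.00563, adjusted p = 1.000). Nr1i3, the xenobiotic and bile acid sensor CAR, measured 20.1 to 27.6 CPM with low fat and 33.4 to 47.1 with low protein, without overlap (1.75-fold, edgeR unadjusted p = 0.00215, adjusted p = 1.000). It measured 21.3 to 40.3 CPM in control and 27.5 to 52.2 with high protein. The intestinal hormone gene Fgf15, which represses Cyp7a1 through the liver receptor FGFR4, had 0 counts in all 16 libraries, which allows up to 0.0251 to 0.092 CPM (3 counts per library, counting error only).

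Abcg5 and Abcg8 encode the paired sterol exporter of the canalicular membrane. Abcg5 measured 213, 193, 175 and 530 CPM in control and 129, 140, 135 and 133 with low fat, and Abcg8 measured 174, 175, 138 and 627 CPM in control and 126, 113, 137 and 96.1 with low fat. All low-fat libraries lay below all controls for both genes, in comparison with 1.32% of all genes. The log2 differences were -1.05 and -1.24 (edgeR adjusted p = 0.530 for both), and -0.56 and -0.49 without control 4. With high protein, Abcg5 ranged from 125 to 273 CPM and Abcg8 from 125 to 234 CPM, and with low protein from 148 to 203 and from 136 to 178 CPM.

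On the sinusoidal side, the basolateral exporter Abcc3 measured 118 to 211 CPM with low fat and 180 to 334 with high protein, and its relative Abcc4 1.37 to 2.85 CPM with low protein and 1.83 to 6.60 in control. Slco1a4, a carrier close in sequence to Slco1a1, measured 67.9, 85.8, 64.3 and 548 CPM in control, 187, 77.3, 68.4 and 239 with high protein, 102, 124, 40.9 and 63.5 with low protein, and 55.6, 47.0, 42.0 and 51.1 with low fat. Its low-fat libraries lay below every control and every high-protein library. The first held for 1.32% of all genes and the second for 4.23%. The log2 difference of low fat from control was -1.97, and -0.60 without control 4. In control 4 and high protein 4, Slco1a4 was high where Slco1a1 was low. Ephx1, an epoxide hydrolase also reported to carry bile acids, measured 197 to 401 CPM in control and 389 to 440 with low protein. Of the detoxification genes, Ugt1a1 was 263 CPM in control 4 and 78.0 to 98.5 in the other controls, and it shares exons with other Ugt1a genes. Cyp2b10, a CAR target with the close copies Cyp2b9 and Cyp2b13, was 32.9 CPM in control 4 and 0.207 to 0.435 in the other controls.

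Slc10a2, the sodium-dependent bile acid carrier known from ileum, bile duct and kidney tubule, was detected in every liver library and was chosen after its values were seen. It measured 52.1, 42.1, 32.7 and 37.2 CPM in control, 28.7, 27.2, 28.8 and 19.7 with high protein, 22.7, 15.3, 40.5 and 38.8 with low protein, and 39.7, 52.2, 43.4 and 50.0 with low fat. All high-protein libraries lay below all control and all low-fat ones, and low protein overlapped with each. The log2 difference of high protein was -0.65 from control (SE 0.26, edgeR unadjusted p = 0.0216, adjusted p = 0.762) and -0.83 from low fat (SE 0.26, edgeR unadjusted p = 0.00536, adjusted p = 0.425). Libraries lay apart in this direction for 0.841% of all genes in the first comparison and 3.99% in the second. Kidney markers summed to 1.56 CPM in high protein 1 and to 5408 CPM in control 3, which had the lowest Slc10a2 of the controls. Control 1, with the highest Slc10a2 of the controls, had a kidney sum of 182 CPM. Of 8 cholangiocyte markers, 7 were lower with high protein than in control (10398 of 17833 genes in all). Against low fat, 8 were lower with high protein (9448 of 17833 genes in all). The parts of kidney and bile duct RNA in Slc10a2 were not tested. The ileal bile acid binding protein gene Fabp6 had 0 counts in all 16 libraries.

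Genes with the most similar pattern over the 16 libraries were sought among 12175 protein-coding genes with a mean of at least 1 CPM, by Spearman's rho of log2 CPM, as a description. For Cyp7a1 these were Tmem266 (rho 0.921), Ttc39b (0.909) and Stard7 (0.891). Ttc39b ran from 22.1 CPM in low fat 2 to 41.2 in high protein 1, a far narrower span than that of Cyp7a1. For Nr0b2 they were Wfs1 (0.891), Grb7 (0.865) and Gdf15 (0.838), each lowest in high protein 2 and highest in low fat 2, as Nr0b2 itself. For Cyp8b1 they were Rchy1 (0.847), Dazap2 (0.815) and Nnat (0.812), each highest in control 4. For Cyp7b1 they were Gstp1 (0.888), Capn8 (0.871) and Serpine2 (0.868), each highest in high protein 3. For Slco1a1 they were Necab1 (0.924), the complement gene C9 (0.912) and Cadps2 (0.909). Gstp1 ran from 182 to 1218 CPM and C9 from 279 to 1011 CPM.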

How the data were processed

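RNA sequencing libraries of snap-frozen liver from 16 mice were prepared with a directional kit, per the labels' protocols. The authors deposited whole-number read counts per gene with gene positions and exon length. Tools named in the submitters' processing notes are edgeR 3.32.1, STAR 2.7.0f, Subread 1.6.4 with featureCounts, and Trimmomatic 0.39, and the build is GRCm38.p6. How strand was handled in counting, and which gene annotation was used, were not given in the sources used here, so reads from overlapping antisense genes or near-identical copies may be shared.

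Symbols came from GENCODE M21 (54723 of 54752 identifiers matched, 53861 of them with the same version, start and end). Groups and replicate numbers were taken from the sample titles, and every column of the table was mapped to a sample by its library name. The counts were fitted in edgeR 4.0.16 (R 4.3.3) with TMM factors, filterByExpr, 4 diet means and 12 residual degrees of freedom, and tested two-sided with Benjamini-Hochberg adjustment over 17833 genes per comparison. Standard errors were derived from the F statistic of each contrast. Correlations used log2 CPM (prior count 2) and 100000 permutations. The genes and lists were chosen with earlier results of these data known. Named genes were the 10 main genes, the 2 genes of each role with the smallest joint p, and the 3 nearest patterns for each of Cyp7a1, Cyp8b1, Cyp7b1, Nr0b2 and Slco1a1. Hsd3b5, Dbp, Arntl, Fgf15, Fabp6 and Slc10a2 were chosen after their values were seen. Alternatives were DESeq2 1.42.0, limma-voom 3.58.1, upper-quartile and RLE factors, other filters, fewer groups, a replicate block, a kidney covariate and each library left out.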

Additional observations from a re-analysis of the deposited data

Results flagged for a closer look

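Dixon's criterion at the 95% level was applied to 96 sets of 4 libraries (24 genes in 4 diets). It flagged a library far from the other 3 in 9 sets, and in 7 of them that library was control 4. The nominal 5% of flagged sets is no comparison for this count. The sets share libraries, and part of the genes were chosen by their joint p in these data. Among the 10 main genes, Cyp27a1 reached 1243 CPM in control 4, beside 420 CPM in the next control. Cyp7a1 reached 135.8 CPM in low fat 4, beside 36.2 CPM in the next low-fat library. Nr0b2 was low in low protein 2, at 27.44 CPM beside 51.9 CPM in the next library of that diet. In control 4 the oxysterol hydroxylase Cyp39a1 stood at 306.3 CPM, the sterol exporters Abcg5 and Abcg8 at 530 and 627 CPM, the carrier Slco1a4 at 548.4 CPM, the glucuronosyltransferase Ugt1a1 at 263.5 CPM and the CAR target Cyp2b10 at 32.91 CPM. Leaving out control 4 moved the log2 difference of low fat from control for Cyp2b10 from -6.29 to -1.51. The latter rests on low levels, 0.0233 to 0.159 CPM with low fat, where 3 counts equal 0.0251 to 0.0793 CPM. The same library had the lowest Slco1a1 (122 CPM) and Slco1b2 (541 CPM) of all 16.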

How the results depend on the processing

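In the 6 comparisons and the joint test, 0 of the 10 genes were called under every alternative run, except that DESeq2 called 1 gene, Cyp7a1, in high protein against low fat (log2 difference 2.35). Leaving out each library in turn gave 0 calls throughout (lowest 0, highest 0). Over all genes edgeR called 0 in every comparison. DESeq2 called 76 for high protein against low fat, 19 for high against low protein, 11 for low protein against control, 1 for high protein against control and 58 jointly. Limma-voom called 1 for high protein against low fat, and edgeR on those 2 diets alone called 16. Without control 3, edgeR called 109 for low fat against control. Without high protein 3 it called 2 against low protein and 1 against low fat. The cause was not tested.

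By Pearson's r, of 8 pairs of genes 1 was correlated after adjustment, and 0 on deviations from the diet means, without control 4 or without the 2 libraries farthest from the median. By Spearman's rho, Cyp7a1 with Nr0b2 was kept without control 4, and on deviations Cyp7b1 with Slco1a1 passed instead. Pearson's r of Nr1h4 with Abcb11 turned to -0.047 on deviations, -0.058 without control 4, -0.245 without 2 libraries and -0.034 with RLE factors, and that of Slc10a1 with Slco1b2 to -0.029 without 2 libraries.

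Some fold changes changed sign, and not all were small. In the main fit, high protein minus control was 0.41 for Cyp7a1, -0.55 for Cyp27a1 and 0.016 for Nr0b2. Low protein minus control was 0.36 for Slco1a1 in that fit. With limma-voom, high protein minus control was -0.40 for Cyp7a1, 0.015 for Cyp27a1, -0.10 for Nr1h4, -0.54 for Nr0b2, -0.076 for Slc10a1 and -0.17 for Slco1b2. Low protein minus control was -0.085 for Slc10a1 and -0.0084 for Slco1a1, low fat minus control was 0.046 for Cyp8b1, -0.082 for Slco1a1 and -0.14 for Slco1b2, and low fat minus low protein was 0.00058 for Cyp27a1. Slc10a1 in low protein minus control was -0.0036 with RLE factors and -0.0037 with DESeq2. With upper-quartile factors low fat minus control was 0.00020 for Cyp8b1 and 0.027 for Nr1h4.

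Leaving out 1 library turned further signs, and the ranges over the libraries left out follow. High protein minus control ran from -0.31 to 0.041 for Abcb11, -0.75 to 0.15 for Cyp27a1, -5.06 to 0.41 for Cyp2b10, -0.036 to 0.78 for Cyp7a1, -0.77 to 0.32 for Nr0b2, -0.11 to 0.15 for Nr1h4, -0.059 to 0.12 for Slc10a1, -0.46 to 0.21 for Slco1a1 and -0.12 to 0.31 for Slco1b2. Low protein minus control ran from -0.87 to 0.022 for Cyp27a1, -0.51 to 0.18 for Cyp7b1 and -0.087 to 0.090 for Slc10a1. Low fat minus control ran from -0.72 to 0.14 for Cyp8b1, -0.18 to 0.10 for Nr1h4, -0.081 to 0.59 for Slco1a1 and -0.10 to 0.33 for Slco1b2. High protein minus low fat ran from -0.47 to 0.39 for Cyp8b1, -0.023 to 0.11 for Nr1h4 and -0.13 to 0.049 for Slco1b2, and high protein minus low protein from -0.017 to 0.080 for Slc10a1. Low fat minus low protein ran from -0.13 to 0.024 for Cyp27a1, -0.057 to 0.74 for Nr0b2 and -0.20 to 0.0083 for Slco1a1. Alternatives for genes outside the main 10 were added after seeing the data. Cyp2b10 had no value under the filter of over 1 CPM in at least 4 libraries, nor for low fat against control with those diets alone.

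Replicate numbers showed no clear pairing of the samples, and this check cannot exclude shared litters or cages. Deviations of libraries with the same number correlated at -0.201 to 0.301 (median 0.039, 8 of 24 pairs over 0.1). With different numbers they correlated at -0.521 to 0.454 (median -0.005, 20 of 72 pairs over 0.1). With the replicate number as a block, 0 of the 10 genes were called in each comparison, and the sign turned for Nr0b2 in high protein minus control (-0.057) and Nr1h4 in low fat minus control (0.0050).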
